A study of Mus musculus with 14 samples.

Results

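The mature miRNAs miR-199a-3p, miR-199a-5p and miR-214 were followed across lung development in the mouse. They were chosen by their TaqMan assay numbers, and all 3 were found among the 516 rows of the deposited table: assay 2304's row is that of miR-199a-3p, assay 498's row that of miR-199a-5p and assay 2306's row that of miR-214. Total RNA was taken from pooled whole lungs of ICR mice, which the labels give as female. Lungs were collected at embryonic days 12, 14, 16 and 18 (E12 to E18, counted from the day of the plug as day 0), at postnatal days 2 and 10 (P2 and P10) and in the adult, with 2 samples at each age and no treatment or mutation. RNA was converted to cDNA with a rodent primer pool and measured by quantitative PCR on TaqMan Low Density Array cards, with the assay of 1 small RNA in each well. The ages can be compared to learn when each miRNA is at its highest level and whether the 3 miRNAs move alike.

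MiR-199a and miR-214 are known as miRNAs of mesenchymal cells. In the mouse embryo, Mir199a-2 and Mir214 are made from one long noncoding transcript, Dnm3os, which runs on the strand opposite to the gene Dnm3. During maturation each hairpin is cut into a 5p and a 3p arm, and one or both arms are loaded into the silencing complex. The mesenchyme of the developing lung surrounds the branching epithelium and gives rise to fibroblasts and smooth muscle. In whole lung RNA, fewer cells that carry a miRNA and less of it per cell cannot be told apart. The rows of the table are not paired with names in the files used here, so that markers of lung cell types were not assigned to rows and the share of mesenchyme in each sample was not measured.

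The mature sequences are given here because the seed, bases 2 to 8 from the 5′ end, selects most targets of a miRNA. They come from RefSeq (GRCm38.p6) and the seed is in capitals.
miR-199a-3p: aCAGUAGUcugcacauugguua
miR-199a-5p: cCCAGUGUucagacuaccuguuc
miR-214 (3p arm): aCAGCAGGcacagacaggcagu
miR-761: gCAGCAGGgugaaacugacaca

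The 3 seeds differ, so that the 3 miRNAs belong to 3 seed families. Counted from 1 at the 5′ end, the seed of miR-214 differs from that of miR-199a-3p by U5C and U8G. Among the 1679 mature mouse miRNA names of the RefSeq table, only miR-761 shares the seed of miR-214, and only miR-199b-3p shares that of miR-199a-3p. MiR-199b-3p has the same 22 bases as miR-199a-3p throughout. The value called miR-199a-3p therefore sums over 3 genes, Mir199a-1, Mir199a-2 and Mir199b, whereas miR-199a-5p comes from Mir199a-1 and Mir199a-2, and miR-214 from Mir214 alone.

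The 2 hairpins of chromosome 1 are shown to place the measured arms, which are in capitals together with the other arm of Mir214.
Mir199a-2 (chr1:162217814-162217923, plus strand): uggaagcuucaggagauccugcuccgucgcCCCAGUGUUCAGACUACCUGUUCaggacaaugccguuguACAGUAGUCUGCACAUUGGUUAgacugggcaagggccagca
Mir214 (chr1:162223368-162223477, plus strand): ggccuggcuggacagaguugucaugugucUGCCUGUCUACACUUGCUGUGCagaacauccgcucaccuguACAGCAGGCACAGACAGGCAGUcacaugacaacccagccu

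In this build 5444 bases lie between both hairpins, and each lies inside the annotated span of Dnm3os and of Dnm3. Mir199a-1 (chr9:21496495-21496564, minus strand) lies within the span of Dnm2, and Mir199b (chr2:32318460-32318569, plus strand) within that of Dnm1. Dnm1, Dnm2 and Dnm3 encode dynamins, which pinch vesicles from membranes. The assays of miR-199a-3p, miR-199a-5p and miR-214 stood on card A in all 14 samples.

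Levels were deposited as ΔCT, which is the threshold cycle of a miRNA less the one of the small nuclear RNA U6, the internal control. The scale is inverse, with abundant miRNAs at low ΔCT, and a step of 1 cycle stands for 2-fold if amplification is complete. Between 272 and 335 assays had a value per sample, and 219 had one in all 14 samples. The values of the 3 miRNAs stand about whole cycles apart, so that differences below 1 cycle were not resolved. The mean ΔCT of the 219 assays itself moved with age, from 11.5 at E12 through 11.4, 10.9, 10.2, 11.3 and 10.9 to 11.1 in the adult, with E18 lowest. Differences are therefore given against U6 and against this mean (the global mean), and differences between ages are the older minus the younger level, so that a negative value is a lower level at the older age.

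MiR-214 was high before birth and fell after it. Its ΔCT was 7.02 and 7.16 at E12, 8.24 and 9.14 at E14, 8.10 and 7.24 at E16, and 7.09 and 7.12 at E18. In the postnatal lung P2 had 10.2 and 9.28, P10 had 10.1 and 10.1, and the adult samples had 10.1 and 11.2. All 6 postnatal samples lay at a lower level than all 8 embryonic samples, and among the embryonic ages E14 stood at the lowest level. Of the 219 assays with a value in every sample, 29 (13.2%) were lower in all postnatal than in all embryonic samples in this way, and 18 (8.22%) were against the global mean. For miR-214 the nearest samples across birth were E14 replicate 2 at 9.14 and P2 replicate 2 at 9.28. Against the global mean they stood at −2.44 and −1.68 cycles. Both gaps were below 1 cycle, so that the separation of these 2 samples was not resolved.

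The postnatal level of miR-214 was 5.72-fold lower than the embryonic one, with each age weighted equally (log2 difference −2.52, SE 0.27, adjusted p = 5.79e-05 by limma over 350 assays). In that comparison 55.7% of the assays changed and 35.7% were lower after birth, so that a fall as such was common. MiR-214 also changed over the 7 ages (range of the means 3.56, adjusted p = 0.00105), as did 56.9% of the assays (58.3% against the global mean). The adult level was 11.8-fold lower than that of E12 (log2 difference −3.56, SE 0.51, adjusted p = 3.39e-04), in a comparison that called 48% of the assays (23.4% lower). Against the global mean the fall in the adult was 15.9-fold (log2 difference −3.99, SE 0.39, adjusted p = 2.95e-05, with 53.4% of assays called). The adult also lay below E18, by 3.55 on the log2 scale against U6 (adjusted p = 5.70e-04, with 34.6% of assays called), and the difference was −2.60 against the global mean (adjusted p = 8.18e-04, with 36.3% called).

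**Figure D1:**
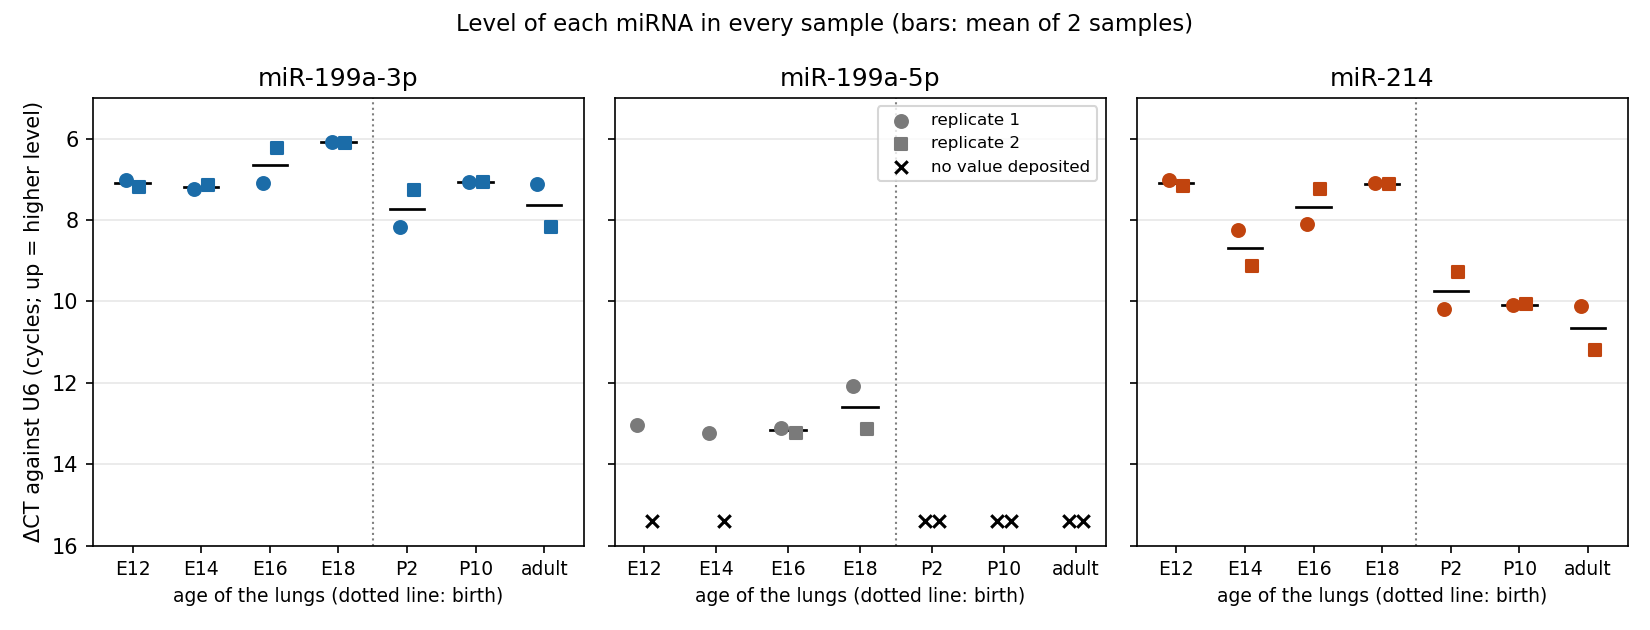
ΔCT against U6 (vertical axis, cycles, inverted so that a higher level is higher up) of miR-199a-3p, miR-199a-5p and miR-214 in each of the 14 samples by age, with circles for replicate 1, squares for replicate 2, bars for the mean of 2 samples and crosses for samples without a value, placed at the bottom of the panel and not at a measured level. The 6 postnatal samples of miR-214 lie at 9.28 to 11.2 cycles, all at a lower level than the embryonic samples at 7.02 to 9.14, and miR-199a-5p has no value after birth. The gap between 9.14 and 9.28 is below 1 cycle and was not resolved.

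Among the 6 successive steps, the fall of miR-214 was called only between E18 and P2. P2 was 6.20-fold lower than E18 (log2 difference −2.63, SE 0.51, adjusted p = 0.0134), in a step in which 23.1% of all assays were called, each of them lower. Without E18 replicate 1 or without P2 replicate 1 the adjusted p of this step was 0.0730 and 0.0685. Against the global mean the difference was −1.51 (adjusted p = 0.0690), and only 2.29% of assays were called. Card A run day, taken as the day on which a run file was last changed, rose with age. It was day 1 at E12, days 3 and 4 at E18 and days 6 and 7 in the adult. The adult thus shared no day with E12 or E18, and effects of day and age cannot be told apart there. One pair of samples shared a card A run day across birth, P2 replicate 1 and E18 replicate 2. In this pair miR-214 differed by −3.08 against U6 and by −1.86 against the global mean, with no test for single samples.

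The later steps were smaller. P10 differed from P2 by −0.34 (adjusted p = 0.735) and the adult from P10 by −0.57 (adjusted p = 0.577), in steps with 10% and 6.57% of assays called. Before birth, E14 differed from E12 by −1.60 (SE 0.51, adjusted p = 0.224), E16 from E14 by 1.02 (adjusted p = 0.345) and E18 from E16 by 0.56 (adjusted p = 0.544). These 3 steps called 1.71%, 0.857% and 5.71% of assays. E18 was higher than E14 against U6 (log2 difference 1.58, adjusted p = 0.0441, with 29.7% of assays called), but against the global mean the difference was 0.29 (adjusted p = 0.711).

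Against U6 the order of the means was E12, E18, E16, E14, P2, P10 and adult, with the highest level first. No 2 neighbors in this order passed the test, with adjusted p between 0.174 and 1. The levels of E18 and E12 differed by −0.01 (SE 0.51, adjusted p = 1, with 32% of assays called). This comparison depended on the scaling. Against the global mean miR-214 was 2.62-fold lower at E18 than at E12 (log2 difference −1.39, SE 0.39, adjusted p = 0.0273, with 27.1% of assays called and 15.7% lower).

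MiR-199a-3p changed less. Its ΔCT was 7.01 and 7.18 at E12, 7.24 and 7.13 at E14, 7.09 and 6.22 at E16, and 6.09 and 6.09 at E18. In the postnatal lung P2 had 8.17 and 7.26, P10 had 7.07 and 7.06, and the adult samples had 7.11 and 8.16. The 6 postnatal values, 7.06 to 8.17, overlapped the 8 embryonic values, 6.09 to 7.24, and the highest levels were those of E18 and E16 replicate 2.

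The test over the 7 ages did not call miR-199a-3p (range of the means 1.63, adjusted p = 0.10). The adult differed from E12 by −0.54 (SE 0.46, adjusted p = 0.353) against U6 and by −0.97 (SE 0.37, adjusted p = 0.0521) against the global mean. The postnatal level was 1.64-fold lower than the embryonic one (log2 difference −0.72, SE 0.25, adjusted p = 0.0348) and 1.55-fold lower against the global mean (log2 difference −0.63, SE 0.20, adjusted p = 0.0232, with 61.7% of assays called). The U6-based call was lost when any 1 of 10 samples was left out (adjusted p up to 0.0894). Both postnatal against embryonic differences were below 1 cycle, the resolution of the values.

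The other called differences of miR-199a-3p involved E18, where the median of the 350 assays was 0.99 higher than at E12 against U6 and differed by −0.38 against the global mean. P2 was 3.09-fold lower than E18 (log2 difference −1.63, SE 0.46, adjusted p = 0.0373) and the adult 2.92-fold lower (log2 difference −1.55, SE 0.46, adjusted p = 0.0295). The first call was lost when any 1 of 7 samples was left out (adjusted p up to 0.192) and with the replicate number as a block (0.0524), and the second when any 1 of 3 samples was left out (adjusted p up to 0.183). The median assay differed by −1.13 between P2 and E18 and by −1.04 between the adult and E18. Against the global mean the same differences of miR-199a-3p were −0.51 (adjusted p = 0.518) and −0.60 (adjusted p = 0.243). The card A run files of P2 replicate 1 and E18 replicate 2 were last changed on the same day. Between these samples miR-199a-3p differed by −2.08 against U6 and by −0.86 against the global mean. E18 differed from E12 by 1.01 against U6 (adjusted p = 0.136) and by −0.37 against the global mean (adjusted p = 0.471), so that its sign depended on the scaling.

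In order of level against U6, miR-199a-3p stood at E18, E16, P10, E12, E14, adult and P2, with the highest first. No 2 neighbors in this order passed the test, with adjusted p between 0.464 and 1. Against the global mean the mean difference from it was −4.43 cycles at E12, −4.26 at E14, −4.29 at E16, −4.07 at E18, and, after birth, −3.56 (P2), −3.88 (P10) and −3.47 (adult). The corresponding values of miR-214 were −4.44, −2.76, −3.27, −3.05, −1.54, −0.87 and −0.45 cycles. On this scale, where a lower value is a higher level, the span of miR-199a-3p was 0.97 cycles and that of miR-214 was 3.99 cycles.

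**Figure D2:**
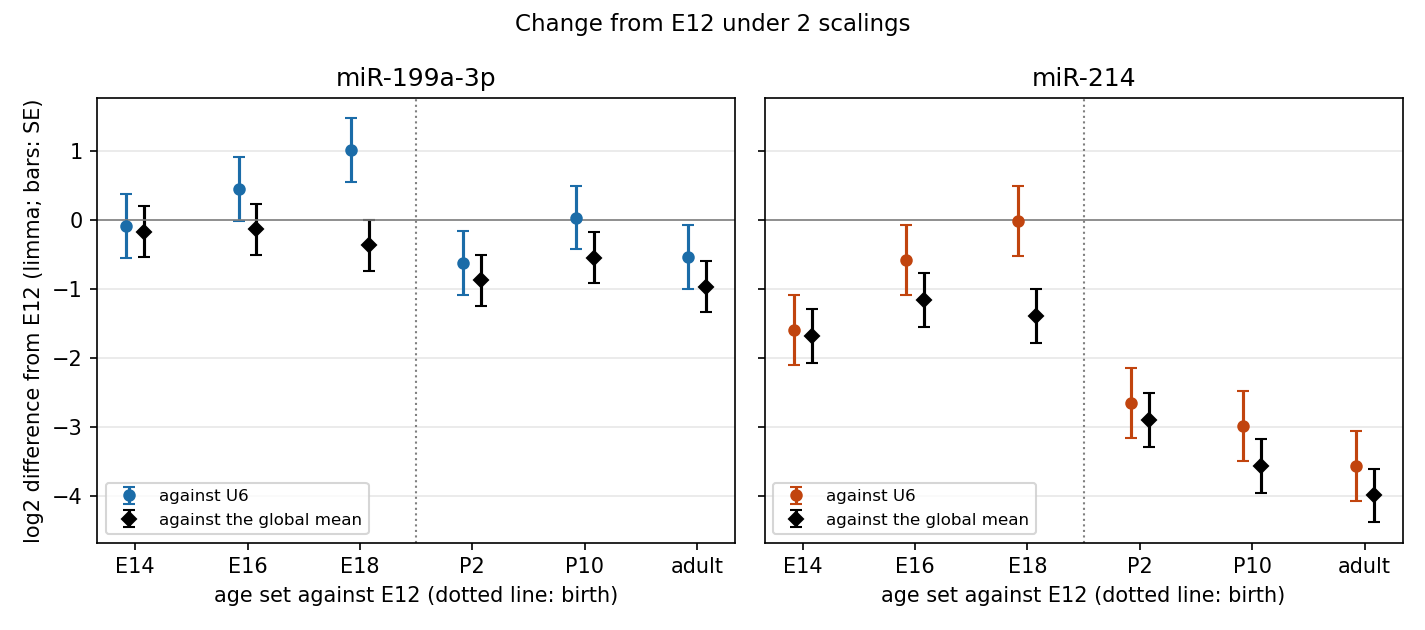
Log2 difference of each age from E12 (vertical axis) by age for miR-199a-3p and miR-214, as estimated by limma with SE bars, against U6 (colored circles) and against the global mean (black diamonds). The scalings part most at E18, where miR-214 differs from E12 by −0.01 against U6 and by −1.39 against the global mean, whereas the adult values of miR-214 are −3.56 and −3.99.

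The rank of an assay among the 219 within a sample does not move when all ΔCT values of the sample shift together, and serves as a description free of that shift. MiR-214 ranked 71 to 114 after birth (median 81) and 17 to 50 before birth (median 38.5), where rank 1 is the lowest ΔCT. MiR-199a-3p ranked 23 to 45 after birth (median 30.5) and 11 to 28 before birth (median 19). By their medians both stood lower in the order after birth. The ranks of miR-199a-3p overlapped between the periods and those of miR-214 did not. The share of the 219 assays whose ranks do not overlap was not computed.

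The level of miR-214 set against that of miR-199a-3p in the same sample needs no internal control, since both assays stood on one card. The log2 difference, miR-214 minus miR-199a-3p, was −0.01 and 0.02 at E12, −1.0 and −2.0 at E14, −1.02 and −1.02 at E16, and −1.01 and −1.02 at E18. P2 had −2.02 and −2.02, P10 had −3.02 and −3.0, and the adult samples had −3.0 and −3.02. The efficiency of each assay is not known, so that the change of this difference with age is informative and its size at one age is not. It moved in steps of about 1 cycle, with E12 at one end and P10 and the adult at the other.

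Relative to miR-199a-3p, miR-214 was 3.48-fold lower after birth than before it. The difference averaged −2.68 ± 0.51 in the 6 postnatal samples and −0.88 ± 0.65 in the 8 embryonic samples (SD), and the change was −1.80 (exact permutation test, two-sided, p = 6.66e-04, the smallest this design allows). E14 replicate 2, at −2.0, was within 0.02 cycles of both P2 samples, below the resolution of the values. With the means of the 7 ages as units, the same exact permutation test gave p = 0.0571, again the smallest possible, so that this split cannot pass 0.05 on ages. Over the 7 ages without a split at birth, the difference varied by a permutation test on F (100000 permutations, one-sided, p = 6.40e-04).

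**Figure D3:**
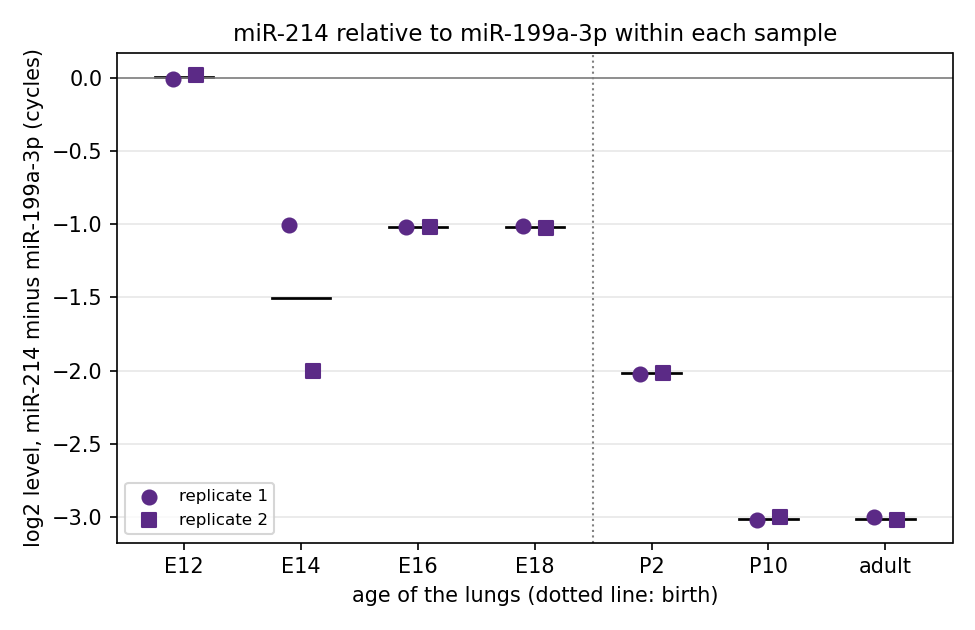
Log2 level of miR-214 minus that of miR-199a-3p (vertical axis, cycles) in each sample by age, with circles for replicate 1, squares for replicate 2 and bars for the mean of 2 samples. The difference is near 0 at E12, near −1 to −2 at E14, near −1 at E16 and E18, −2.02 at P2, and near −3 in the P10 and adult samples.

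Across the 7 age means, the levels of miR-214 and miR-199a-3p had a Pearson correlation of 0.75 against U6 and 0.89 against the global mean. Both values describe 7 points that share samples, cards and the internal control. The within-sample difference shows the part they did not share.

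MiR-199a-5p, the other arm of the miR-199a hairpins, had a far higher ΔCT and was measured only before birth. Its ΔCT was 13.0 in E12 replicate 1, 13.2 in E14 replicate 1, 13.1 and 13.2 at E16, and 12.1 and 13.1 at E18. E12 replicate 2, E14 replicate 2 and all 6 postnatal samples had no value. It was thus measured in 0 of 6 postnatal and 6 of 8 embryonic samples. An exact permutation test of this share (two-sided, with samples as units) gave p = 0.0186. The test was chosen after the values were seen, so that its p-value is no evidence for the pattern that prompted it. Of the 397 assays measured in at least 1 sample, 12 (3.02%) had a value in 6 or more embryonic samples and in no postnatal sample, and 1 (0.252%) had a value in 4 or more postnatal and in no embryonic sample.

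A missing value did not always go with a missing value in the other sample of its age, and the level behind it is not known. Where the other sample of the age lay between 12 and 14 cycles, 31 of 937 values (3.31%) were missing over all samples, among them 4 of 86 in E12 replicate 2 and 1 of 72 in E14 replicate 2. Missing values at this level were more frequent in some samples after birth, up to 5 of 58 (8.62%) in adult replicate 2. One rule takes a missing value as a level below that at the highest ΔCT of its own sample (a mean of 18.8 over the 6 postnatal samples). By this rule miR-199a-5p would be at least 55.1-fold lower after birth than in the 6 embryonic samples that measured it, with a mean ΔCT of 13.0. The postnatal level would be at least 71.3-fold lower than that of E18. The rule would also place E12 replicate 2 and E14 replicate 2 beyond 19.1 and 19.2 cycles. The other sample of each age had 13.0 and 13.2, so that these folds are not lower bounds unless the rule holds for this assay. They leave out both embryonic samples without a value, and are void if the postnatal reactions failed, which was not tested.

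No fitted difference between ages is given for miR-199a-5p. Among the 350 assays it was kept only through E16 and E18, where both samples had a value, and each of its postnatal values would be an imputed constant.

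Where both arms of miR-199a had a value, the log2 level of miR-199a-5p minus that of miR-199a-3p was −6.03 in E12 replicate 1, −5.99 in E14 replicate 1, −6.01 and −7.02 at E16 and −5.98 and −7.03 at E18. In these 6 samples the distance between the arms varied by about 1 cycle, which is the resolution of the values. E12 replicate 2 and E14 replicate 2, with miR-199a-3p at 7.18 and 7.13 and no value of miR-199a-5p, do not enter this comparison. Against miR-214 the difference was −6.02, −4.99, −5.00 and −6.00, and −4.97 and −6.01 in the same samples. Neither pair could be compared across birth.

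Among the 217 other assays measured in all samples, those whose 7 age means were most like the mean of the 3 miRNAs, with missing values of miR-199a-5p set to the highest ΔCT of the table (19.85), were assays 442 (Pearson r 0.974) and 528 (r 0.970). Assay 528 had a mean ΔCT of 8.60, 8.69, 8.17, 7.60, 9.74, 10.1 and 10.6 from E12 to the adult. Against U6 its level was thus highest at E18 and lowest in the adult. Against the global mean it was highest at E12 (mean difference from it −2.93 cycles), with −2.56 at E18 and −0.46 in the adult. All postnatal values of miR-199a-5p in that mean are imputed, so that the likeness is not one to measured levels alone. The likeness depended on the measure. The imputed values give miR-199a-5p the widest range of the 3, and the effect of this on the likeness was not tested. Of these 2 assays, 0 were among the 2 most like the 3 miRNAs against the global mean, and 0 were among the 2 most like miR-214 alone or miR-199a-3p alone. Among the 5 most like miR-214 alone there was 1, assay 528, and among the 5 most like miR-199a-3p alone there were 0. The points of each correlation share samples and scaling.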

How the data were processed

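Total RNA of pooled lungs was extracted with the mirVana kit, reverse transcribed with the Megaplex rodent pool and run on cards A and B. The deposited values are ΔCT, the authors' CT minus that of U6, on a log2 scale. The methods set undetected reactions to an upper CT limit, but 2888 of the 7224 deposited cells are blank. The names of the 3 miRNAs came with their assay numbers, and the files do not pair these. The members and the lists were chosen with earlier results of these data known.

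The level was taken as minus ΔCT. Values under 0.001 (5, all in E14 replicate 2) were treated as missing. The 350 assays with both samples measured at 1 age or more were kept, and blanks were set to the highest ΔCT, 19.85. The fit used limma 3.58.1 (R 4.3.3; 1 mean per age, all 14 samples, moderated variance, two-sided, Benjamini-Hochberg over the 350 assays, called below an adjusted p of 0.05). A fold is 2 raised to the log2 difference. Differences between miRNAs were tested with scipy 1.17.1 in Python 3.11.15. Of the 3 pairs of miRNAs, 1 had values on both sides of birth, so that no adjustment was made. The procedure was tested on simulated data. Named assays were the 3 miRNAs and the 2 assays most correlated with their mean. Run day was the day on which a run file was last changed. Whether the 2 samples of an age came from separate pools is not given in the sources used here, so that the p-values rest on a spread that may be technical. Alternatives were scaling to the global mean, other filters and treatments of blanks, a trend in the variance, a test without moderation, run day of card A or replicate number as blocks, and omission of single samples.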

Additional observations from a re-analysis of the deposited data

Results flagged for a closer look

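One value stood apart within its group. Among the 6 embryonic samples that measured miR-199a-5p, E18 replicate 1 had a ΔCT of 12.1, about 1 cycle below the others, which lay between 13.0 and 13.2. The gap was 0.836 of the range of the 6 values. The limit it passed is set so that about 1 in 20 groups would pass it by chance, and the values stand about whole cycles apart.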

How the results depend on the processing

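Of 221 recomputed values other than leaving out a sample, over 25 results, 202 kept direction and call, and the cause of the others was not tested. The values that follow are log2 differences.

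With the global mean in place of U6, miR-199a-3p differed by −0.37 between E18 and E12 and by −0.22 between E18 and E16, both with the sign turned, and lost its calls of the adult and of P2 against E18 (−0.60 and −0.51). These 4 values were the same when the fit was also limited to assays present in every sample, an alternative added after seeing the data, which also called the adult against E12 (−0.97, adjusted p = 0.0378). With the global mean in place of U6 alone, miR-214 differed by −0.22 between E18 and E16, with the sign turned, and was called lower at E18 than at E12 (−1.39). It lost its call of P2 against E18 (−1.51). The added alternative kept that call (−1.51, adjusted p = 0.0148) and also called E14 against E12 (−1.68, adjusted p = 0.0119). With that limit but against U6, the change of miR-199a-3p over the 7 ages was called (range 1.63, adjusted p = 0.0376). With the run day of card A as a random effect, E18 against E12 turned to 0.13 for miR-214. E18 and E12 shared no such day, so that this setting cannot separate day from age for them. With the 7 age means as units, the postnatal against embryonic change of miR-214 minus miR-199a-3p (−1.80) had p = 0.0571 (exact permutation test).

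Replicate numbers did not pair the samples: of 21 correlations between same-numbered deviations, 3 were above 0.1 (median −0.02). With the replicate block, P2 against E18 of miR-199a-3p (−1.63) had an adjusted p of 0.0524. The block changed no other call.

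Leaving out each sample in turn gave −2.70 to −2.34 for miR-214 postnatal against embryonic, −4.10 to −3.02 for adult against E12, −4.08 to −3.01 for adult against E18, and ranges over the ages of 3.02 to 4.10, all with the call kept. P2 against E18 ran from −3.09 to −2.17 and lost its call without E18 or P2 replicate 1. E18 against E12 ran from −0.086 to 0.057 and P10 against P2 from −0.80 to 0.12. For miR-199a-3p, postnatal against embryonic ran from −0.89 to −0.54, and the call held only without E12 replicate 2, E16 replicate 1, P2 replicate 2 or adult replicate 1. Adult against E18 ran from −2.07 to −1.02, with the call lost without either E18 sample or adult replicate 2. P2 against E18 ran from −2.08 to −1.17, with the call lost without either sample of E14, E18 or P10 or without P2 replicate 1. For miR-199a-5p, the exact permutation p of the share of samples with a value ran from 0.00816 to 0.0326, in an alternative added after seeing the data. The change of miR-214 minus miR-199a-3p ran from −1.96 to −1.67 (exact permutation p 0.00117 to 0.00155). With 2 samples per age and values about 1 cycle apart, differences below 1 cycle are beyond the precision.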
